A study of Mus musculus with 15 samples.

Results

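AG221 and ruxolitinib were given alone and together to mice carrying the same double-mutant marrow, so their mutant lineage-negative Sca-1+ c-Kit+ (LSK) cells form a 2-by-2 factorial. The members are 12 of the 15 RNA-seq libraries of the series, chosen as the 4 mutant groups of 3 libraries (vehicle, AG221, ruxolitinib and combined therapy); 3 wild-type libraries were outside the fit. The quantity examined was the interaction, combined − AG221 − ruxolitinib + vehicle on the log2 scale. It is 0 where the change under combined therapy equals the sum of both single-drug changes. It is also the change that AG221 made on the ruxolitinib background minus the change it made on the vehicle background. Of 45232 gene IDs in the table, 16203 passed the low-count filter and were tested. Levels are given in CPM, read counts scaled to a common effective library size, and are compared only between libraries, never between genes.

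All 12 libraries came from donor (CD45.2+) LSK cells of C57BL/6 mice. The donor marrow carried conditional Jak2 V617F and Idh2 R140Q alleles switched on by the interferon-inducible Mx1-Cre, and was engrafted 1:1 with CD45.1 wild-type marrow in lethally irradiated recipients, so every mutant group, vehicle included, carries both alleles and shared its marrow with competitor cells. Drugs were gavaged BID over 21 to 28 days, AG221 at 40 mg/kg and ruxolitinib at 60 mg/kg, and the last dose preceded sacrifice by about 1.5 hours. RNA was amplified by SMARTer before sequencing. The study used male and female mice of a range of ages, and the labels gave neither the age nor the sex behind each library. The sorted cells are of donor origin, and Uty, a Y-linked demethylase gene, read 64.3 to 108 CPM in the mutant libraries and 0 to 0.0337 CPM in the wild-type ones. Xist, the RNA of X inactivation, read 0.365 to 19.5 CPM in the mutant libraries and 455 to 511 CPM in the wild-type ones. By these genes the mutant libraries read as male and the wild-type ones as female. Nothing in the labels says whether a library was 1 mouse or a pool, so p-values measure the spread between these samples, which may be technical in part.

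Mutant IDH2 makes 2-hydroxyglutarate (2HG), which competes with 2-oxoglutarate in the dioxygenases that demethylate histones and oxidise methylcytosine, and AG221 blocks its production. JAK2 V617F signals without cytokine through STAT factors, and ruxolitinib inhibits JAK1 and JAK2. LSK cells are the stem and multipotent progenitor fraction of marrow. Immediate early genes such as Fos and Nr4a1 are transcribed within minutes of a signal and their mRNAs decay fast, whereas granule protease genes such as Mpo and Elane mark commitment to the neutrophil and monocyte path. LSK identity was checked against its markers: Kit, which encodes the stem cell factor receptor, read 740 to 1402 CPM across the mutant groups and Cd34 read 665 to 1102 CPM. Ly6a, which encodes Sca-1, was more variable, from 13.1 to 165.8 CPM among the vehicle libraries. Cd3e and Ly6g, which mark T cells and neutrophils, stayed at or under 1.24 and 2.26 CPM, while Itgam, which encodes the myeloid integrin CD11b, read 28.1 to 85.3 CPM.

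Depth ran from 18836625 to 32174287 counts per mutant library. One AG221 library (A9) and one ruxolitinib library (A16) stood apart from their groups. On the first principal component A9 scored −3.77 against −100.7 and −84.2 for A8 and A10, and A16 scored −47.9 against 19.3 and 14 for A14 and A17. Results that rest on them are given with and without them. Replicate names of vehicle, AG221 and ruxolitinib begin with A, and those of combined therapy begin with B, as do the wild-type names. What the letter stands for was not given, so the interaction and the letter cannot be told apart. Wild-type levels are therefore printed beside many of the leading genes.

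At an adjusted p under 0.05 (edgeR quasi-likelihood test, Benjamini-Hochberg), 42 genes lay above the sum, 0.259% of those tested, and 125 lay below it, 0.771%, for 1.03% in both directions. At an unadjusted p under 0.05 the interaction passed in 4875 genes, 30.1%. The count of called genes depended on A9: without it 3762 genes were above (22.2%) and 1823 below (10.7%), and all 167 genes called with it were among them with their signs kept. Leaving out A9 and A16 together gave 3562 above (21.3%) and 1518 below (9.06%). Leaving out any other library gave 0 to 711 genes above and 6 to 277 below; the fits without A8, A10, A14, A17, A1, A4, B24 or B25 called at most 13 genes each.

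Most genes below the sum had 1 of 2 shapes. In 78 of the 125, both single drugs had positive values and the combination a negative one, with median log2 changes against vehicle of 0.73 (AG221), 0.27 (ruxolitinib) and −0.52 (combined). In another 18, all 3 values were negative and the combined one was well under the sum, at medians of −0.44, −0.60 and −3.76. The single drugs had opposite signs in 26, and all 3 values were positive in 3. Of the 42 genes above the sum, 23 were negative with each single drug and positive with the combination, at medians of −0.58, −0.23 and 1.32. Over all 16203 genes tested, both single drugs had the sign opposite to the combination in 4323. All 3 values shared a sign in 4959, and the single drugs had opposite signs in 6921. The interaction that selected the called genes is built from these same values, so their shapes follow in part from the selection. Genes above the sum had longer and more AT-rich transcripts (median length 4149 bases and 43.7% GC) than genes below (2182 bases, 49.6%) or all genes (2984 bases, 49.1%). Transcript GC content also moved with the libraries: the slope of log2 expression per 10 points of GC was −0.42 and −0.28 in A8 and A10, 0.08 in A9 and 0.11 to 0.22 in the combined libraries. Its part in these counts was not tested beyond the fit with GC offsets, which called 351 genes above and 363 below. Transcript length moved as well. The slope of log2 expression per doubling of length was −0.10 in A8 and A10, −0.03 in A9 and 0.03 to 0.09 in the combined libraries. No fit corrected for length, and its part was not tested.

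**Figure D1:**
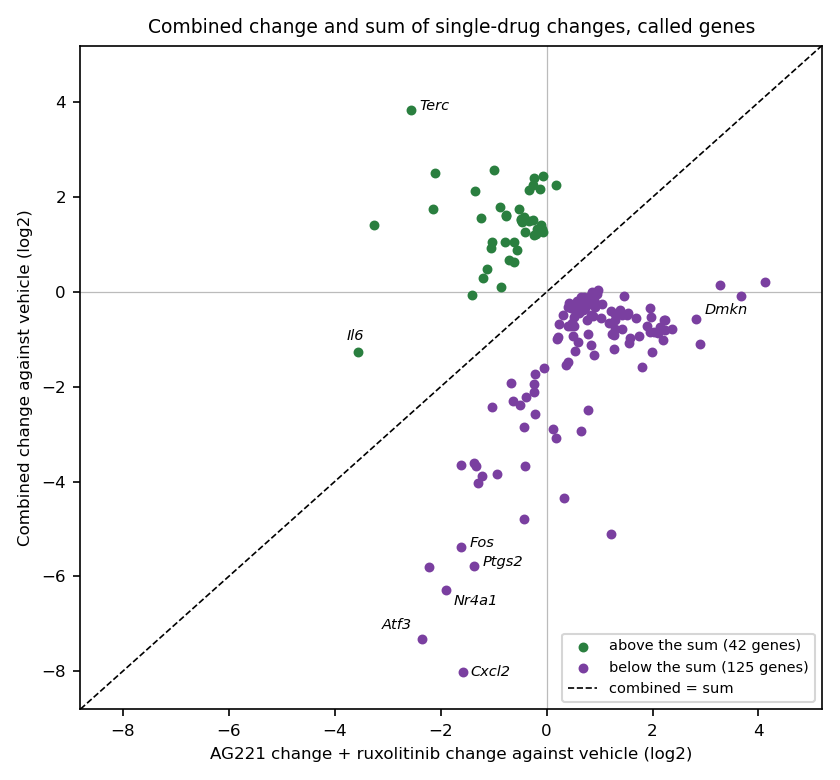
Each point is 1 of the 167 called genes. The x axis is the AG221 change plus the ruxolitinib change against vehicle and the y axis the combined change against vehicle, all as log2 fold changes; the dashed line marks equality. The 42 genes above the sum sit mostly left of 0 and over it. The 125 below form a dense group with positive sums and combined values near or under 0, and a tail that reaches −8.01 for Cxcl2.

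Immediate early genes had many members below the sum. Of the 30 genes of the immediate early list, 8 were called below (26.7%, against 0.771% of all genes) and 0 above: Fos, Fosb, Atf3, Nr4a1, Klf6, Btg2, Zfp36 and Ier3. This list and the later ones were chosen with earlier results of these data known, so their shares are descriptions without a test. Promoter sequences of Fos and of 2 inflammatory genes described next are shown as examples that hold a motif searched here. RefSeq windows (GRCm38.p6, plus strand, from 250 to 31 bases before the annotated start) are printed for Fos at chr12:85473640-85473859, Ptgs2 at chr1:150099781-150100000 and Cxcl2 at chr5:90903649-90903868. Capitals mark the cAMP response element core TGACGT in Fos, the C/EBP motif TTGCNNAA in Ptgs2 and both matches to the NF-kB motif (GGG, any 2 bases, TTTCC) in Cxcl2.
Fos: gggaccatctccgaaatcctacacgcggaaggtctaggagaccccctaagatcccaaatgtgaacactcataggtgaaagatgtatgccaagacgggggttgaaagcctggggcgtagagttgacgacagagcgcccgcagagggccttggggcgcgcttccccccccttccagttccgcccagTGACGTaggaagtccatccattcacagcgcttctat
Ptgs2: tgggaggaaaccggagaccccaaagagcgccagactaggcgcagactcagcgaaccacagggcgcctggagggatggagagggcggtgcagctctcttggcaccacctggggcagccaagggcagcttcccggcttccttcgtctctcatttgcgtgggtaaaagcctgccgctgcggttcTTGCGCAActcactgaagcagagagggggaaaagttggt
Cxcl2: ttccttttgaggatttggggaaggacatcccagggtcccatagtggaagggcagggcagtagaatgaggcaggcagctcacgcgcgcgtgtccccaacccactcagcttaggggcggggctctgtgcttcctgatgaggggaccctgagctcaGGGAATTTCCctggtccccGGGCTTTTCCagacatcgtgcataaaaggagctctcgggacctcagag

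The motifs were searched on both strands of the 250 bases before each RefSeq start; TGACGT is also contained in the full cAMP response element. TGACGT occurred in 14 of 118 windows of genes below the sum (11.9%), in 5 of 38 windows of genes above it (13.2%) and in 9.4% of the windows of tested genes. TTGCNNAA occurred in 13.6%, 7.89% and 7.91% of these windows. The NF-kB motif occurred in 4 windows below the sum and 1 above, against 1.46% of tested windows, and TGANTCA, the AP-1 motif, in 11% and 5.26% against 4.66%. The CArG box, CCWWWWWWGG with W for A or T, was in 4 windows below the sum and 0 above, against 1.15% of tested windows. Among the 11 windows of immediate early and inflammatory genes called below, TGACGT was in 3 and TGANTCA in 0. TTGCNNAA, the NF-kB motif and the CArG box were in 1 each. The printed Ptgs2 and Cxcl2 windows are thus the only ones of the 11 with TTGCNNAA and the NF-kB motif. These shares describe letters in a window and carry no test.

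Fos, which encodes a subunit of AP-1 (ENSMUSG00000021250, chromosome 12, 85473890 to 85477273 on mm10), read 2660, 4883 and 1789 CPM in the vehicle libraries. It read 1309, 1486 and 1638 CPM under AG221, 2453, 1515 and 2456 CPM under ruxolitinib and 124, 32.4 and 67.7 CPM under combined therapy. The combined libraries lay far under all 9 others, AG221 libraries lay under vehicle, and ruxolitinib overlapped both. The sum of both single-drug changes would place combined therapy at 1017 CPM, and the measured mean was 74.7 CPM. The interaction was −3.77 ± 0.65 log2 (SE, n = 3 libraries a group; adjusted p = 0.0354, edgeR), from single-drug values of −1.07 ± 0.45 and −0.54 ± 0.45 and a combined value of −5.38 ± 0.54.

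Atf3, a stress-induced repressor of the ATF/CREB family (chromosome 1, 191170296 to 191218039), was one of the 3 genes that also passed an adjusted p of 0.01. It read 56.5, 45.7 and 47.8 CPM in vehicle, 17.4, 33.3 and 17.4 CPM under AG221, 27.9, 14.1 and 22.3 CPM under ruxolitinib, and 0.251, 0.201 and 0.487 CPM (5, 6 and 11 reads) under combined therapy. No library of the combined group came near any other mutant library. The interaction was −4.96 ± 0.54 log2 (adjusted p = 0.00917, edgeR). On a linear scale the sum of the 2 decreases would lie below 0 CPM, so for Atf3 the departure holds on the log scale only. Klf6, a zinc finger factor, read 663 to 952 CPM in vehicle, 412 to 562 under AG221, 494 to 654 under ruxolitinib and 60.0, 64.6 and 73.9 CPM under combined therapy, for an interaction of −2.36 ± 0.26 log2 (adjusted p = 0.00917, edgeR). Both genes were called in all 12 fits that left out 1 library.

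Fosb, an AP-1 subunit like Fos, read 90.7 to 221 CPM in vehicle, 59.4 to 88.5 under AG221, 35.2 to 103 under ruxolitinib and 1.74 to 3.41 CPM under combined therapy. Nr4a1, an orphan nuclear receptor induced by calcium and mitogen signals, read 410, 696 and 83.7 CPM in vehicle and 5.42, 5.83 and 3.85 CPM under combined therapy. AG221 (98.4 to 231 CPM) and ruxolitinib (175 to 286 CPM) lay within the range of vehicle and over the combined group. Their interactions were −3.59 ± 0.61 and −4.40 ± 0.85 log2 (adjusted p = 0.0342 and 0.0417, edgeR). Zfp36, which destabilises AU-rich mRNAs such as Tnf, had −2.91 ± 0.47 log2, and Btg2, an antiproliferative cofactor, −2.23 ± 0.43. Ier3, a survival gene induced early by NF-kB, had −1.41 ± 0.23. In each of these genes all 3 combined libraries lay under the 9 others, a pattern found in 7.52% of all genes tested.

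Not every immediate early gene was called. Egr1, a zinc finger factor downstream of ERK, and Junb, an AP-1 subunit, had combined values of −4.05 and −2.60 log2 against vehicle but AG221 values of −2.08 and −1.82, and their interactions were −1.40 ± 0.99 (adjusted p = 0.353, edgeR) and −0.39 ± 1.13 (adjusted p = 0.836, edgeR). Jun, like Junb an AP-1 subunit, stood at 0.12 ± 1.17 log2. These 3 were chosen after their values were seen. Their standard errors of 0.99 to 1.17 log2 are too wide to tell whether they followed the sum. Over the 30 genes, 21 interactions were negative and 9 positive, with a median of −0.96 against 0.10 over all genes; without A9 the median was −0.02 and 10 genes were called below, against 10.7% of all genes. List level, the mean log2 CPM relative to vehicle, was −2.31, −2.76 and −2.99 in the combined libraries, −1.67, −0.39 and −1.47 in A8, A9 and A10, and −0.01, −1.48 and −0.27 in A14, A16 and A17.

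Wild-type libraries, whose names carry the letter B, were as low as the combined ones at these genes. Fitted over all 15 libraries, the list level was −2.49 to −2.17 in wild type and −2.63 to −2.02 in the combined group, while vehicle spanned −0.39 to 0.66. Atf3 read 0.235 to 0.404 CPM in wild type and Klf6 67.7 to 78.5 CPM. Wild-type cells carry neither mutation, received neither drug and, by Uty and Xist, were of the other sex. Whether the shared letter, the genotype, the treatment or the sex set these levels was not tested.

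**Figure D2:**
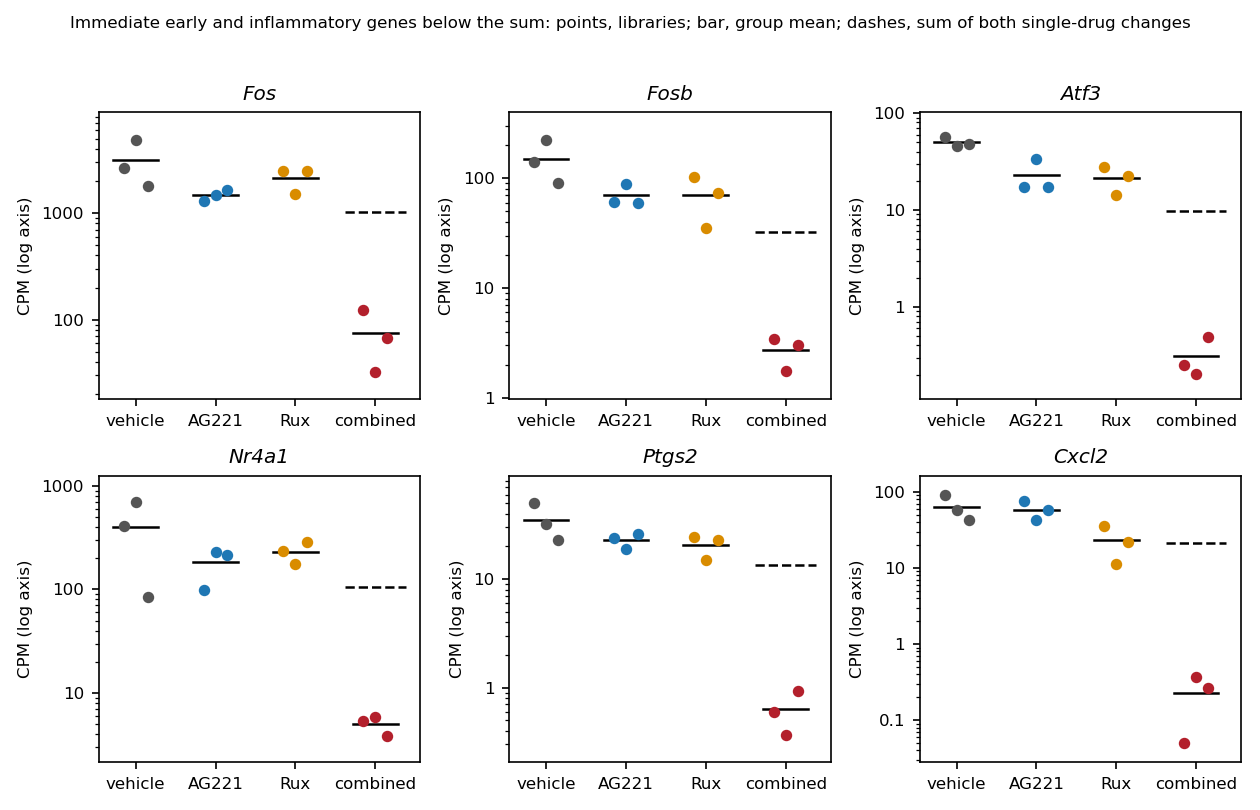
CPM on a log axis in each of the 12 mutant libraries for Fos, Fosb, Atf3, Nr4a1, Ptgs2 and Cxcl2; points are libraries, bars group means, and the dashed bar over the combined group marks the level that the sum of both single-drug log changes gives. In every panel the 3 combined points lie under the dashed bar and under the other 9 points; for Fos the bar is at 1017 CPM and the combined mean at 74.7 CPM.

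Inflammatory mediators induced by NF-kB were also found below the sum. Of 26 tested genes of the NF-kB and inflammatory list, 5 were called below (19.2%), Ptgs2, Cxcl2, Tnf, Ccl4 and Cd69, and 1 above, Il6 (3.85%). Cxcl2, a neutrophil-attracting chemokine, read 90.3, 58.0 and 42.3 CPM in vehicle, 75.1, 42.7 and 57.6 CPM under AG221, 35.9, 11.1 and 22.1 CPM under ruxolitinib, and 0.0502, 0.368 and 0.266 CPM (1, 11 and 6 reads) under combined therapy. AG221 libraries overlapped vehicle, ruxolitinib libraries lay under both, and the combined ones were at the edge of detection. The interaction was −6.42 ± 0.76 log2 (adjusted p = 0.012, edgeR). Ptgs2, the inducible prostaglandin synthase COX-2, read 22.7 to 49.7 CPM in vehicle, 18.9 to 25.7 under AG221, 15.0 to 24.2 under ruxolitinib and 0.368 to 0.930 CPM under combined therapy, for −4.43 ± 0.52 log2 (adjusted p = 0.012, edgeR). Both were called in all 12 fits that left out 1 library, and both were as low in wild type, at 0.0335 to 0.303 CPM for Cxcl2 and 0.539 to 0.972 CPM for Ptgs2.

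Tnf, the founding cytokine of its family, read 27.9 to 45.3 CPM in vehicle, 33.2 to 50.7 under AG221, 18.4 to 25.6 under ruxolitinib and 3.61, 1.27 and 3.59 CPM under combined therapy (−3.26 ± 0.50 log2; adjusted p = 0.0288, edgeR). Ccl4, a chemokine for monocytes and T cells, had an interaction of −3.26 ± 0.57 log2, and Cd69, which retains lymphocytes in tissue and is an early activation antigen, −2.03 ± 0.37. Cxcl10, an interferon-induced chemokine, read 13.4 to 29.1 CPM in vehicle, 17.8 to 46.4 under AG221, 8.01 to 12.7 under ruxolitinib and 0.201, 0.703 and 1.2 CPM under combined therapy (−4.36 ± 0.75 log2; adjusted p = 0.0354, edgeR). For these 4 genes every combined library was under every other mutant library.

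Il6, the cytokine that signals through gp130 and JAK kinases, went the other way. It read 4.02, 5.83 and 5.35 CPM in vehicle, 1.96, 1.62 and 1.51 under AG221, 1.25, 1.43 and 1.14 under ruxolitinib and 1.61, 2.54 and 2.13 CPM under combined therapy. The combined libraries overlapped AG221 and stayed under vehicle, whereas the sum of the single-drug changes would give 0.426 CPM. Its interaction was 2.30 ± 0.37 log2 (adjusted p = 0.0288, edgeR). The feedback inhibitors Nfkbia and Tnfaip3, chosen after their values were seen, had combined values of −2.18 and −2.38 log2 against vehicle and interactions of −0.24 ± 0.58 and 0.09 ± 0.53 (adjusted p = 0.801 and 0.919, edgeR). The median interaction of the 26 genes was −0.23, with 18 negative and 8 positive. List level in wild type, −1.50 to −1.40, was near that of the combined group, −1.71 to −1.42, in the fit over 15 libraries.

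Neutrophil granule genes lay below the sum in the first shape: higher readings with each drug alone, lower with both. Of 20 tested genes of this list, 7 were called below (35.0%) and 0 above, Mpo, Elane, Ctsg, Hp, Ms4a3, Igsf6 and Gstm1. All 20 interactions were negative, with a median of −2.92. The list is named for granule genes but also holds others, among them Ms4a3, Igsf6 and Gstm1. The median log2 changes against vehicle were 1.34 with AG221, 0.71 with ruxolitinib and −0.85 with the combination. Summed over the list, the genes read 8392 to 13841 CPM in vehicle, 18372 to 21232 under AG221, 12571 to 20550 under ruxolitinib and 4513, 5761 and 8003 CPM under combined therapy. On this sum, to which Mpo contributes most, neither combined therapy nor AG221 overlapped vehicle. On the mean log2 level, which weights genes equally, the combined libraries (−2.11, −0.51 and −0.15 relative to the vehicle mean) overlapped vehicle (0.21, 0.33 and −0.55). In bulk samples, fewer cells of a type and less RNA per cell cannot be told apart. Ly6g, the mature neutrophil antigen, is in this list and read at most 2.26 CPM in any library.

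Mpo, myeloperoxidase of the azurophil granule (chromosome 11, 87793581 to 87804413), read 5092, 7725 and 6830 CPM in vehicle. It read 11376, 10671 and 9879 CPM under AG221, 11914, 7721 and 8977 CPM under ruxolitinib and 2529, 3270 and 4784 CPM under combined therapy. All AG221 libraries were over vehicle, ruxolitinib A16 touched it, and all combined libraries were under it. The sum would give 15498 CPM and the combined mean was 3528 CPM, an interaction of −2.14 ± 0.34 log2 (adjusted p = 0.0288, edgeR). Elane, neutrophil elastase, read 1106 to 3082 CPM in vehicle, 3483 to 4427 under AG221, 2407 to 4120 under ruxolitinib and 872, 1036 and 1093 CPM under combined therapy (−2.87 ± 0.50 log2; adjusted p = 0.0354, edgeR). Hp, the haemoglobin-binding haptoglobin stored in neutrophil granules, read 97.7, 115 and 90.4 CPM in vehicle, 378, 258 and 266 under AG221, 196, 109 and 129 under ruxolitinib and 40.7, 53.1 and 71.6 CPM under combined therapy.

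Hp had an interaction of −2.97 ± 0.37 log2 (adjusted p = 0.0155, edgeR) and was called in 11 of the 12 fits that left out a library, whereas Mpo and Ms4a3 were called in 4. Ms4a3, which marks granulocyte-monocyte progenitors, had −2.46 ± 0.39 log2 and Ctsg, cathepsin G, −1.92 ± 0.37. Prtn3, proteinase 3, and the calprotectin gene S100a8, named after their values were seen, had −1.67 ± 0.38 and −3.05 ± 0.79 (adjusted p = 0.0604 and 0.0627, edgeR). Without A9, 11 of the 20 were called below (10.7% of all genes), and 15 without A9 and A16 (9.06%), and the median interaction stayed at −2.91 and −3.12. In wild type Hp read 26.7 to 34.9 CPM and Mpo 2164 to 2388 CPM, under all mutant libraries.

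**Figure D3:**
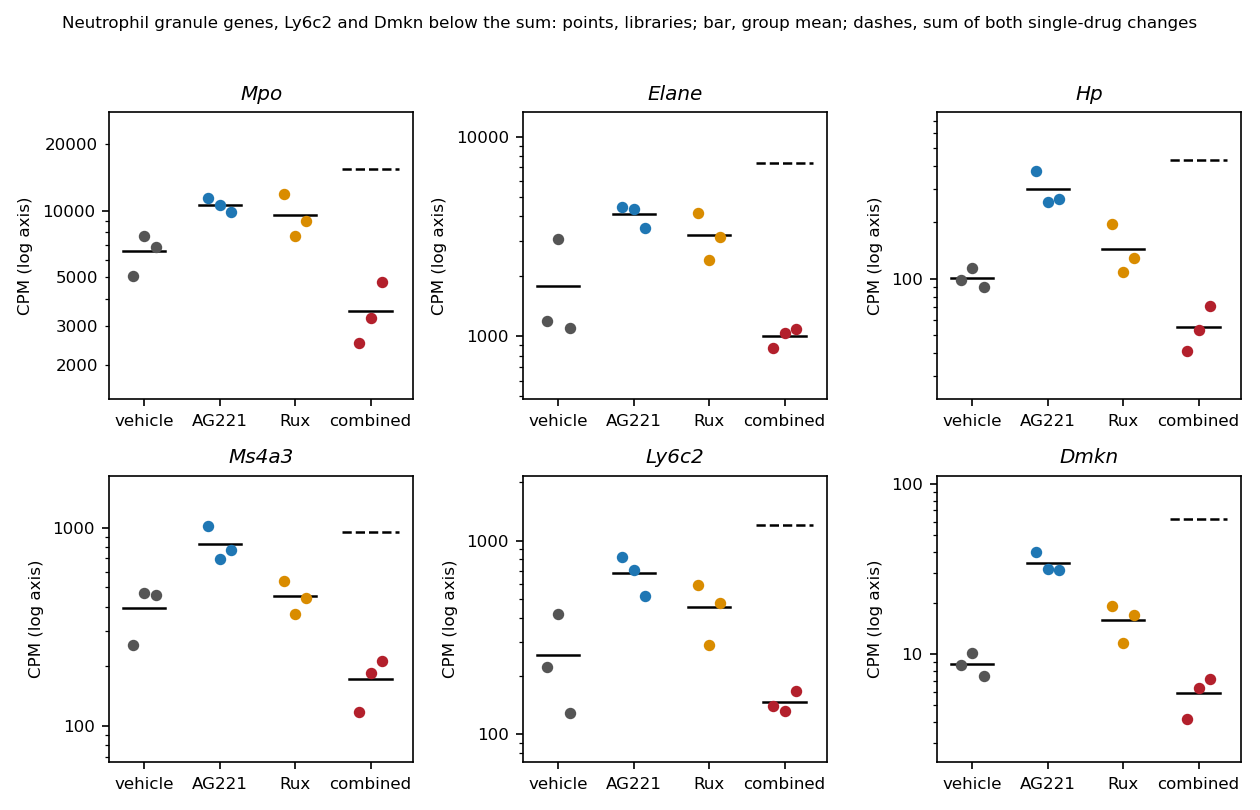
CPM on a log axis in each mutant library for Mpo, Elane, Hp, Ms4a3, Ly6c2 and Dmkn, with the same symbols as for the early genes (points, libraries; bars, group means; dashes, the sum). In each panel the AG221 mean is over the vehicle mean and the combined points lie under the dashed bar, and they are under all 9 others except for Ly6c2, where they overlap vehicle; the Mpo bar is at 15498 CPM and the combined mean at 3528 CPM.

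Of 24 monocyte and dendritic genes, 3 were called below (12.5%), Mgl2, Ly6c2 and Cd14, and 21 of the 24 interactions were negative (median −0.85). The median values against vehicle were 0.33 with AG221, −0.13 with ruxolitinib and −0.52 with the combination. Mgl2, a galactose lectin of macrophages and dendritic cells, read 2.44 to 6.38 CPM in vehicle, 15.0 to 23.6 under AG221, 13.4 to 22.6 under ruxolitinib and 3.61, 7.57 and 4.87 CPM under combined therapy. Every library of either single drug read over vehicle and the combined ones overlapped it, with log2 values of 2.12, 2.01 and 0.20 and an interaction of −3.93 ± 0.55 log2 (adjusted p = 0.0262, edgeR). Ly6c2, the Ly6C antigen of monocytes, read 128 to 418 CPM in vehicle, 519 to 823 under AG221, 290 to 590 under ruxolitinib and 132 to 167 under combined therapy (−3.04 ± 0.55 log2; adjusted p = 0.0377, edgeR). Cd14, the lipopolysaccharide co-receptor, had −3.27 ± 0.63 log2.

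Dmkn, which encodes the secreted protein dermokine, had the smallest p-value of the interaction. It read 8.63, 10.2 and 7.49 CPM in vehicle, 39.7, 31.5 and 31.5 under AG221, 19.1, 11.7 and 17 under ruxolitinib and 4.17, 6.33 and 7.17 CPM under combined therapy. The 4 groups did not overlap, and the interaction was −3.40 ± 0.36 log2 (adjusted p = 0.00917, edgeR). Dmkn was called in 12 of 12 fits that left out a library. Wild type read 2.90 to 3.88 CPM, under all mutant libraries. Slpi, a secreted inhibitor of elastase and cathepsin G, and Trem3, a myeloid receptor that signals through DAP12, had interactions of −2.83 ± 0.40 and −2.80 ± 0.38 log2. Outside the lists, and named after their values were seen, the complement gene C3 (−3.38 ± 0.60), the myeloid lectins Clec5a (−3.15 ± 0.52) and Clec12a (−2.24 ± 0.42), the Fc receptor Fcgr3 (−2.50 ± 0.37) and Alas1, which starts haem synthesis (−2.07 ± 0.34), were also called below. Each of these 5 had positive values with both single drugs and a negative one with the combination.

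Pgd, an enzyme of the pentose phosphate path, read 219 to 240 CPM in vehicle, 340 to 457 under AG221, 267 to 311 under ruxolitinib and 141 to 172 under combined therapy, with no overlap between groups (−1.58 ± 0.19 log2; adjusted p = 0.012, edgeR). Ftl1, the ferritin light chain, had −1.10 ± 0.15 log2, and the glycolytic enzymes Gpi1 and Eno1 had −1.01 ± 0.15 and −1.02 ± 0.19. Part of the Ftl1 model, 26.5%, is overlapped by antisense annotation and its counts cannot be split by strand. The spread within groups at these genes was narrow, and the departures of about 1 log2 rest on AG221 readings over vehicle and combined readings under it.

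Of 77 nuclear genes of the respiratory complexes, 6 (7.79%) were called below, as were 5 of 79 cytoplasmic ribosomal protein genes (6.33%); 0 of either list were above. Respiratory genes had a median interaction of −0.57, with 64 of 77 negative, and ribosomal protein genes −0.50, with 72 of 79 negative. The median AG221 values were 0.51 and 0.43 log2, and the median combined values −0.01 and −0.13. Combined levels were thus near vehicle while AG221 levels were over it. Ndufb3, a complex I subunit, read 58.4 to 64.2 CPM in vehicle, 89.0 to 101 under AG221, 63.1 to 67.2 under ruxolitinib and 53.3 to 59.3 under combined therapy (−0.88 ± 0.16 log2; adjusted p = 0.0377, edgeR). Rpl28, of the large ribosomal subunit, read 133 to 141 CPM in vehicle, 197 to 216, 133 to 144 and 114 to 125 CPM in the other groups in that order (−0.76 ± 0.14 log2; adjusted p = 0.0377, edgeR). Without A9, when 10.7% of all genes were called below and 22.2% above, 47 respiratory genes were below and 12 above, and 59 ribosomal protein genes were below and 3 above. Without A16, 0 of either list were called.

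Sgk1, Neat1 and Hspa5 had small single-drug values and a low combined one. Sgk1, a kinase induced by glucocorticoids, read 31.8, 32.9 and 33.1 CPM in vehicle, 32, 27.8 and 34.3 under AG221, 32.7, 25.3 and 28.9 under ruxolitinib and 9.94, 10.8 and 8.77 CPM under combined therapy (−1.50 ± 0.22 log2; adjusted p = 0.0288, edgeR). Neat1, the long noncoding RNA of paraspeckles, read 214 to 314 CPM in vehicle, 277 to 343 under AG221, 182 to 250 under ruxolitinib and 81.5 to 91.7 under combined therapy (−1.56 ± 0.24 log2). Hspa5, the chaperone BiP of the endoplasmic reticulum, read 2555 to 3457 CPM in vehicle, 2225 to 2510 under AG221, 2035 to 2368 under ruxolitinib and 639 to 911 CPM under combined therapy (−1.25 ± 0.22 log2; adjusted p = 0.0354, edgeR). Combined libraries lay under all 9 others at all 3 genes, and wild type was similar to them at 10.3 to 15.2, 83.4 to 107 and 630 to 721 CPM.

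Of the 42 genes above the sum, 4 belonged to any of the lists. Prkcq, protein kinase C theta (chromosome 2, 11172108 to 11301222), had the smallest p-value among the 42. It read 39.1, 48.1 and 41.7 CPM in vehicle, 19.3, 25.7 and 24.7 under AG221, 38.1, 34.8 and 36.7 under ruxolitinib and 64.5, 62.3 and 53.3 CPM under combined therapy. Each group was apart from the others, AG221 lowest and combined highest. The interaction was 1.60 ± 0.22 log2 (adjusted p = 0.0223, edgeR). Wild type read 61.1 to 80.4 CPM.

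Crebzf, a bZIP cofactor of the unfolded protein response, read 4.76 to 8.42 CPM in vehicle, 5.65 to 9.73 under AG221, 3.67 to 5.45 under ruxolitinib and 34.1, 29.4 and 25.2 CPM under combined therapy (2.5 ± 0.39 log2; adjusted p = 0.0288, edgeR). Ccnj, a cyclin, read 6.70 to 7.56 CPM in vehicle and 18.1 to 23.0 under combined therapy, with AG221 (5.78 to 9.07) and ruxolitinib (4.56 to 6.33) at or near vehicle (1.83 ± 0.30 log2). Fam208a, a subunit of the HUSH silencing complex, read 20.6 to 29.2 CPM over the 9 other libraries and 58.5 to 80.0 under combined therapy (1.53 ± 0.26 log2; adjusted p = 0.0342, edgeR). For these 3 genes the single drugs left readings close to vehicle, and the departure came from the combined libraries. Wild type, which shares the letter B, also lay over vehicle at all 3. It read 19.2 to 23.5 CPM for Crebzf, 13.0 to 20.9 for Ccnj and 61.6 to 96.7 for Fam208a. What set these levels was not tested.

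Kbtbd2 and Klhl42, substrate adaptors of cullin-3 ubiquitin ligases, had interactions of 1.25 ± 0.20 and 2.28 ± 0.39 log2. Trim59 and Rnf145, both RING domain proteins, had 2.63 ± 0.49 and 2.09 ± 0.37. Trim59 read 16.3 to 29.0 CPM in vehicle, 15.9 to 21.6 under AG221, 15.9 to 32.4 under ruxolitinib and 159, 134 and 68.0 CPM under combined therapy, with B26 lowest. Cfl2, which severs actin filaments, had 1.38 ± 0.23, Nsmaf, an adaptor of the TNF receptor, 1.41 ± 0.26, Ttc14 2.51 ± 0.45, and Mthfd2l, a mitochondrial folate enzyme, 3.47 ± 0.65 from 0.929 to 12.7 CPM. All 3 combined libraries lay over the 9 others at each of these 8 genes, because the rule that named them required it. That pattern occurred at 12.9% of all genes tested. B26 was the lowest of the 3 combined libraries at each of the 8. Wild type also lay over vehicle at each of the 8. It read 55.8 to 110 CPM for Trim59, 29.7 to 56.0 for Klhl42 and 52.7 to 73.1 for Kbtbd2. These top genes were called in 2 to 5 of the 12 fits that left out a library, and in the fit without A9 their adjusted p was 0.00592 to 0.0073 (edgeR).

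Zinc finger genes with a Zfp symbol, mostly KRAB repressors, had 3 of 326 called above, Zfp397, Zfp292 and the pseudogene Zfp125, and 1 below, Zfp36, which binds RNA. Their median interaction was 0.34, with 241 positive and 85 negative, and it was near 0.04 with upper quartile scaling. Zfp292 read 43.9 to 52.6 CPM in vehicle, 36.8 to 55.1 under AG221, 37.9 to 52.4 under ruxolitinib and 95.9 to 149 under combined therapy (1.50 ± 0.29 log2; adjusted p = 0.0417, edgeR). Zfp397 read 87.0 to 103 CPM in vehicle, 36.2 to 57.7 under AG221 and 85.3 to 95.3 under combined therapy, so its departure of 1.33 ± 0.23 log2 was a combined level in the vehicle range. Pbrm1, a subunit of the PBAF chromatin remodeller (1.43 ± 0.29), Pias2, a SUMO ligase that binds STAT proteins (2.01 ± 0.40), Ccng2, a cyclin induced by FOXO factors (2.67 ± 0.53), and Kcna3, a potassium channel (3.56 ± 0.69), were also called above and are named after their values were seen.

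**Figure D4:**
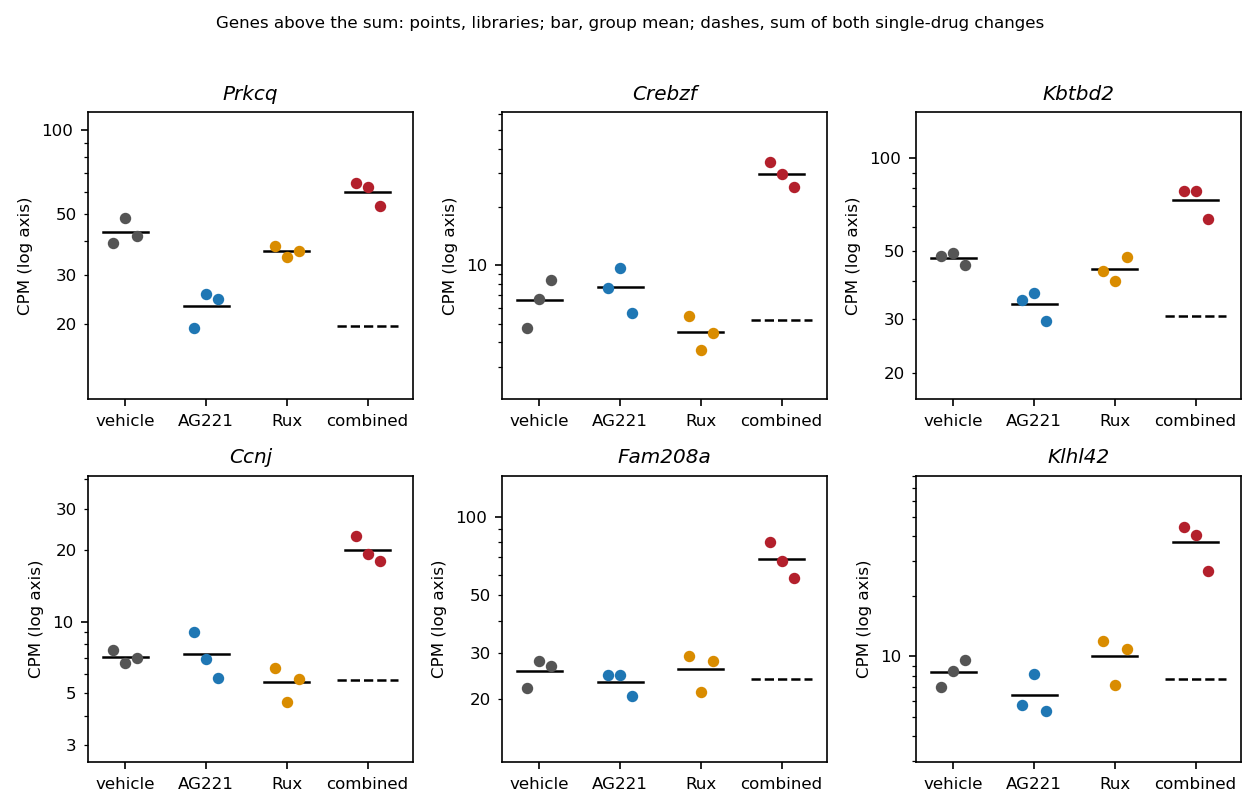
CPM on a log axis in each mutant library for Prkcq, Crebzf, Kbtbd2, Ccnj, Fam208a and Klhl42 (points, libraries, bars, group means, dashes, the sum). These 6 have the smallest p-values above the sum among genes that met the naming rule. That rule required that the combined libraries overlap no other group. Il6 had a smaller p-value than Kbtbd2 but did not meet it. In every panel the 3 combined points lie over all 9 others, as the naming rule required, and over the dashed bar. For Prkcq the bar is at 19.7 CPM and the combined mean at 60.0 CPM.

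The pathways that the drugs target were themselves mostly unresolved. None of 22 STAT target genes was called, while 17 interactions were positive and the median was 0.98. The median single-drug values were −0.78 (AG221) and −0.46 (ruxolitinib) and the combined value −0.20. Socs1, an inhibitor of JAK kinases, read 0.480 to 1.06 CPM in vehicle, 0.0392 to 0.695 under AG221, 0.0815 to 0.740 under ruxolitinib and 4.01, 4.42 and 1.77 CPM under combined therapy (4.58 ± 1.16 log2; adjusted p = 0.0612, edgeR). Pim3, a survival kinase, had 2.65 ± 0.93 log2 (adjusted p = 0.0988, edgeR). Without A9, 9 of the 22 were called above (background 22.2%) and 0 below. The feedback genes Cish and Socs2, named after their values were seen, had ruxolitinib values of −1.67 and −1.86 log2 and combined values of −1.85 and −1.83.

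Jak2 read 21.4, 19.7 and 23.7 CPM in vehicle, 24.5, 31.1 and 25.5 under AG221, 22.1, 20.1 and 20.5 under ruxolitinib and 45.5, 51.2 and 38.9 CPM under combined therapy. The combined libraries lay over the other 9, and the interaction was 0.79 ± 0.23 log2 (adjusted p = 0.071, edgeR), so it did not pass. Idh2 read 208, 361 and 453 CPM in vehicle, 50.6, 331 and 62.4 under AG221, 471, 118 and 418 under ruxolitinib and 480, 450 and 544 CPM under combined therapy. A9 and A16 were apart from their groups at this gene, and the interaction of 1.75 ± 0.96 log2 had an adjusted p of 0.236 (edgeR), or 0.00919 without A9. Gene counts do not separate mutant from normal transcripts of either gene.

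Interferon response genes had a median interaction near 0, which does not show that each gene followed the sum. Of 50 tested, 0 were above and 1, Cxcl10, below. The median interaction was 0.03, with 28 positive and 22 negative. Their median log2 changes were −0.06 with AG221, −0.86 with ruxolitinib and −0.91 with the combination. The list level was −0.80, −0.86 and −0.94 in the ruxolitinib libraries and −0.94, −1.08 and −0.93 in the combined ones, while AG221 gave −0.14 to −0.02 and vehicle −0.39 to 0.56. Ruxolitinib and combined libraries did not overlap vehicle or AG221. Usp18, which restrains the interferon receptor, read 23.9 to 38.7 CPM in vehicle, 17.7 to 24.5 under AG221, 12.3 to 12.6 under ruxolitinib and 13.4 to 16.6 under combined therapy, for an interaction of 0.70 ± 0.31 log2 (adjusted p = 0.155, edgeR). In wild type the list level was 0.02 to 0.10, near vehicle and away from the combined group. Wild type differed from the combined group in genotype, treatment and sex, and what set these levels was not tested.

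Other lists had medians on either side of that of all genes and few calls. Stem cell identity genes (40 tested) had 33 positive interactions and a median of 0.54, and the histone methyltransferase, Polycomb and remodeller list (53 tested) had 43 positive and a median of 0.34, each with 0 called. Lmo2 and Gata2, transcription factors of blood stem cells, had 2.26 ± 0.57 and 2.42 ± 0.67 log2 (adjusted p = 0.0612 and 0.0678, edgeR). Proteasome genes had 30 of 33 negative (median −0.72) and 1 called, Sem1, a subunit of its lid. Erythroid genes had a median of −1.21 and 0 called; that value rests on A16, where their summed level was 8606 CPM against 2951 and 2980 CPM in A14 and A17, and it was −0.37 without A16. Hbb-bs, an adult beta globin gene, read 581 CPM in A16 and 52.3 to 54.4 CPM in the other ruxolitinib libraries.

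Among the remaining lists, glycolysis and hypoxia had 2 of 33 called below and NRF2 antioxidant and iron storage 2 of 26, the genes named above. ER stress chaperones (1 of 21, Hspa5; median −0.08, and 0.39 without A9), glucocorticoid induced genes (1 of 18, Sgk1), nuclear long noncoding RNAs (1 of 23, Neat1) and p53 targets (1 of 24, Btg2) each had 1 below. T and NK cell genes had 1 of 20, Nkg7, a protein of cytotoxic granules (−0.98 ± 0.17 log2), and mast cell and basophil genes 1 of 16, Srgn, the granule proteoglycan serglycin (−0.80 ± 0.15). No gene was called in the lists of MAPK feedback (median 0.95), JAK kinases, STAT factors and cytokine receptors (0.77), megakaryocyte (0.67), 2-oxoglutarate dioxygenases (0.18), SR splicing factors (0.17), core and linker histones (−0.02, but 0.88 without A9 and 0.69 without A9 and A16), B-lineage and plasma cell (−0.04), Bcl2 family (−0.11), Y-linked and X-inactivation (−0.20), ATF4 response (−0.21), cholesterol synthesis (−0.32), mitochondrially encoded (−0.39), DNA replication and mitosis (−0.47), IDH and TCA cycle (−0.51), ribosome biogenesis (−0.61) or heat shock genes (−0.62).

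**Figure D5:**
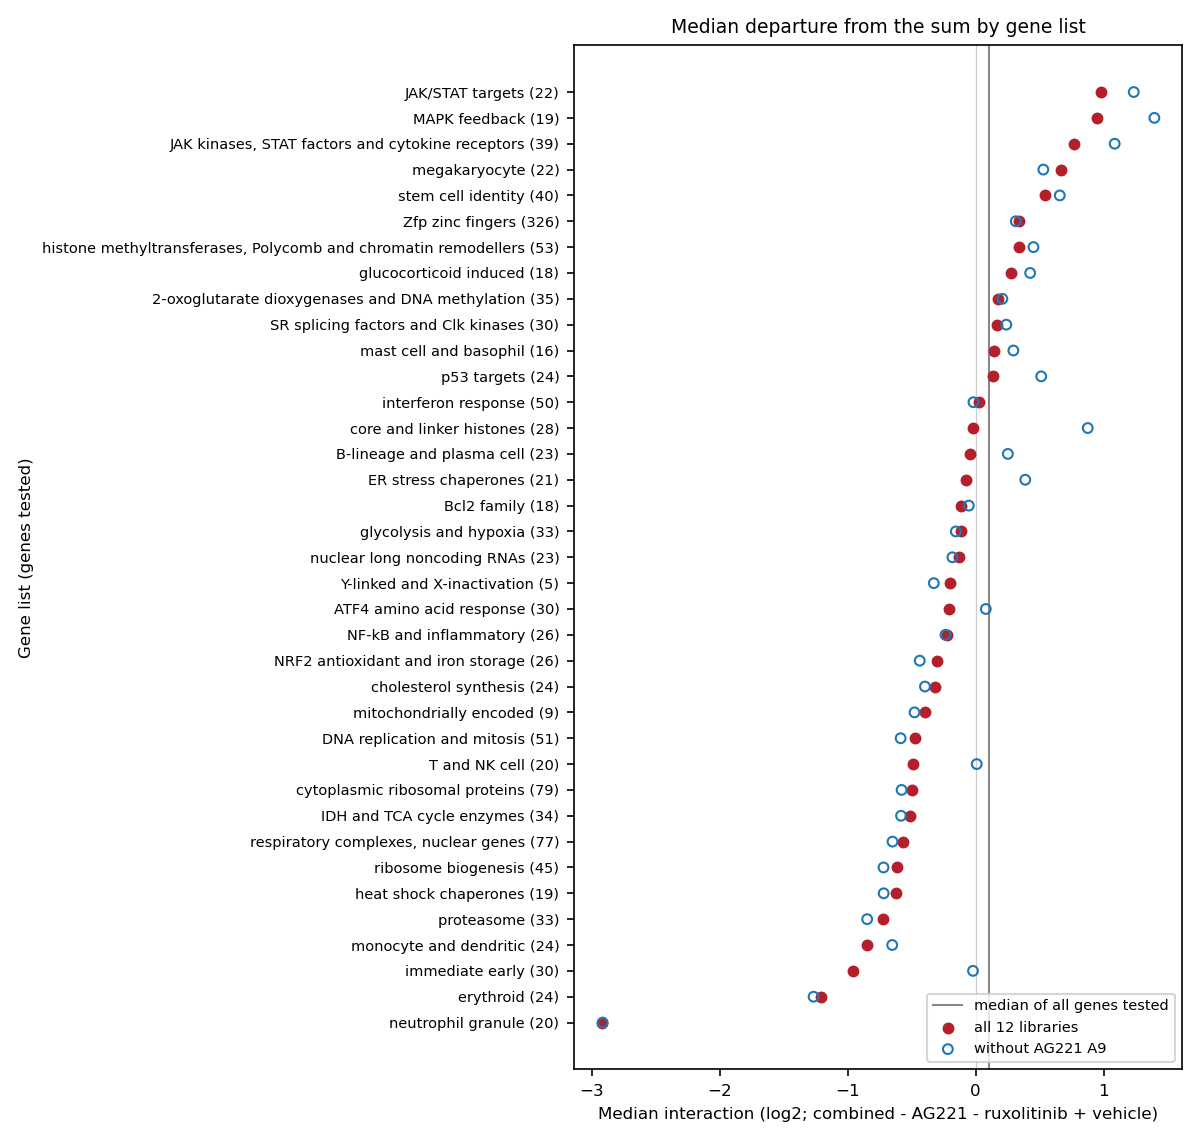
Median interaction (x axis, log2) of each gene list (y axis, genes tested in brackets); filled points use all 12 libraries, open points leave out AG221 A9, and the grey line is the median of all genes, 0.10. Neutrophil granule genes lie lowest at −2.92 and keep that place without A9, whereas the immediate early list moves from −0.96 to −0.02.

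The interaction can also be read as 2 changes of AG221, alone and on ruxolitinib. AG221 against vehicle and combined against ruxolitinib share no library. Over 16203 genes their log2 changes had a Pearson r of −0.13 and a Spearman rho of −0.15, as a description with genes that share libraries and no p. Changes had a SD of 0.69 for AG221 alone and 0.84 for AG221 added to ruxolitinib. For ruxolitinib alone against ruxolitinib added to AG221 r was 0.04, with SDs of 0.49 and 1.07. At the called genes below the sum, the combined change against ruxolitinib had a median of −1.17 while AG221 alone had 0.63. Above the sum these were 1.54 and −0.46. The interaction that selected these genes is the difference between these 2 changes, so a gap between them follows from the selection.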

How the data were processed

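RNA-seq counts per gene were analysed as the authors deposited them. According to the submitters' processing notes and the study's methods, reads were aligned and counted with STAR 2.5.1a on mm10 (GRCm38); the annotation release and strand setting are not given in the sources used here, so overlapping and antisense genes cannot be told apart. The deposited table normalized with DESeq2 1.6.3 was not used. Symbols came from GENCODE M21 (44585 IDs matched, 647 not).

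A coefficient for each of the 4 groups was fitted to the 12 mutant libraries with edgeR 4.0.16 in R 4.3.3 (filterByExpr, TMM, quasi-likelihood F test, 8 residual degrees of freedom, common biological coefficient of variation 0.324, Benjamini-Hochberg threshold 0.05, prior count 2). Single-drug log2 changes came from the same fit and carry no calls. Wild-type ranges came from all 15 libraries. Scripts were tested on simulated data. Groups followed the labels, and no 2 libraries were alike within sampling noise. Depth sets a limit of 3 counts for a gene at 0, and such intervals cover counting error only.

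Named genes were the 12 smallest p-values in each direction among called, protein-coding genes off chromosomes X and Y, without predicted or antigen receptor genes, whose combined libraries did not overlap another group; up to 4 members of each of 37 lists; and Jak2 and Idh2. Of the listed symbols 4 were not matched and 3 matched by synonym. Members and lists were chosen with earlier results of these data known. Alternatives were other scalings, DESeq2 1.42.0, limma 3.58.1 voom with sample weights, other filters, all 15 libraries, GC offsets, fewer genes, a stricter threshold and each library left out; leaving out A9 and A16 together was added after the data were seen. Promoter windows came from RefSeq (GRCm38.p6; 10940 of 16200 tested symbols matched).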

Additional observations from a re-analysis of the deposited data

Results flagged for a closer look

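The AG221 change differed between the vehicle and the ruxolitinib background, by the test of the interaction itself, at 42 genes above the sum and 125 below it. These are the genes described in the report, led by Prkcq and Crebzf above and by Dmkn, Atf3 and Klf6 below. Groups of 3 libraries are too small for the test of single outlying libraries, which was not run.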

How the results depend on the processing

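Every one of the 167 called genes that an alternative tested kept its sign in it on the log scale, while 2 genes below the sum changed sign on the linear CPM scale. The number of calls moved widely, and the cause was not tested. The counts above and below were 42 and 125 as reported. They were 68 and 136 with RLE scaling, 455 and 675 with upper quartile scaling, 1748 and 1146 with DESeq2, 3830 and 2143 with voom and sample weights, 1469 and 344 with no filter, 66 and 158 with at least 10 counts in every library, 999 and 503 with all 15 libraries, and 351 and 363 with GC offsets. An adjusted p under 0.01 left 0 and 3, by construction. The genes above made up 25.1% of calls as reported, 33.3% with RLE, 40.3% with upper quartile, 60.4% with DESeq2, 64.1% with voom, 81.0% with no filter, 66.5% with 15 libraries and 49.2% with GC offsets. The median interaction of all genes moved from 0.103 to −0.194 with upper quartile scaling and to −0.0857 with GC offsets, so the small positive medians of broad lists are relative to the scaling.

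Leaving out 1 library gave 0 to 3762 genes above and 6 to 1823 below. The fits without A9 (3762 and 1823) and B26 (711 and 277) called more; those without A1 (2 and 11), A4 (0 and 9), A8 (0 and 7), A10 (0 and 10), A14 (0 and 6), A17 (0 and 9), B24 (0 and 13) and B25 (0 and 7) called fewer, A3 gave 5 and 88, and A16 gave 12 and 85. Leaving out A9 and A16 together, chosen after the data were seen, gave 3562 and 1518. Genes above made up 67.4% of calls without A9, 72.0% without B26 and 70.1% without A9 and A16. At an unadjusted p under 0.05 the fits called 3595 to 7561 genes. Across the named genes and alternatives, 2592 values kept their side of the threshold, 610 passed it newly, 458 no longer passed and 8 changed sign. The 8 were Atf3 on the linear CPM scale (6.16 CPM), Ms4a2 without A4 (−0.0628; up to 2.299 over the libraries left out), Mzb1 with voom (0.179) and without A9 and A16 (0.0534), and Eif2s3y without A1 (0.0923), A10 (0.15), A14 (0.210) and B24 (0.379; down to −0.592 over the libraries left out).

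No paired analysis was possible because the replicate names are not shared between groups. The 3 libraries a group limit single-gene calls, and combined therapy and the letter B cannot be told apart.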
